A study of Homo sapiens with 4 samples.

Results

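The genes described are those of MHC class I heavy chains and peptide transport, chosen by name from the count table: the heavy chains HLA-B, HLA-C, HLA-E and HLA-F, the light chain B2M, the peptide transporter genes TAP1 and TAP2, tapasin (TAPBP), the trimming peptidase ERAP1 and the transactivator NLRC5. All 10 were among the 15037 genes of the table, and all 10 passed the filter on low counts. The cells were A549, a long-established lung carcinoma epithelial line, grown in DMEM, and their messenger RNA was sequenced. The 4 libraries were 2 of a knockdown of PSME4, a proteasome activator (PSME4 KD), and 2 of a control whose genotype is labelled RFP KD (control KD). All 4 share the same parental line, and the labels give no knockdown method, no time and no word on whether cultures were separate. The p-values rest on the spread of these 4 libraries alone, and that spread may be technical. The series title concerns tumour immunogenicity, and the comparison asks whether transcripts of class I presentation differ once PSME4 is depleted.

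Class I molecules show peptides from inside the cell to CD8+ T cells. Proteasomes and cytosolic peptidases make the peptides, the TAP1 and TAP2 heterodimer pumps them into the endoplasmic reticulum, ERAP1 trims them, and tapasin holds the empty heavy chain and B2M near the transporter until a peptide binds. NLRC5 does not bind these promoters alone but is recruited by the RFX, CREB/ATF and NF-Y factors that sit on the class I and B2M promoters, while interferons and NF-kB raise many of the same genes.

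Class I promoters are where NLRC5, interferon and NF-kB factors are known to act. TAP1 is the transporter gene with the larger difference in the fit without a GC correction, though that difference did not pass. The stretches of 250 bases before the start site are shown for the heavy chains HLA-B, HLA-C and HLA-F, for B2M and for TAP1. They are from RefSeq on GRCh38.p14, read 5′ to 3′ on the strand of the gene and ending 1 base before the start. Capitals mark matches, on either strand, to CCAAT (the Y box of NF-Y), AGCAAC (a half-site of the X1 box of RFX), TGACG (a half-site of the X2 box of CREB/ATF), the core of the interferon-stimulated response element (GAAA, 2 bases of any kind, GAAA) and the kappaB consensus.
HLA-B: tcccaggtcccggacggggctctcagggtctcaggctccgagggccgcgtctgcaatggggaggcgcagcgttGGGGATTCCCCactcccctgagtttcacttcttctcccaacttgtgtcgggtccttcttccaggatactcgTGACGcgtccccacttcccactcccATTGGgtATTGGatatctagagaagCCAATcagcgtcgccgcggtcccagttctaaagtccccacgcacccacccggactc
HLA-C: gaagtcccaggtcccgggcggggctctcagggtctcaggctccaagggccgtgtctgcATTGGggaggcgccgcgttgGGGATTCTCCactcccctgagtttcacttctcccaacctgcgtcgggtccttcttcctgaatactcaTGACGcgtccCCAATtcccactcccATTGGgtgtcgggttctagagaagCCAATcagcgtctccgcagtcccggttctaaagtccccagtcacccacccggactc
HLA-F: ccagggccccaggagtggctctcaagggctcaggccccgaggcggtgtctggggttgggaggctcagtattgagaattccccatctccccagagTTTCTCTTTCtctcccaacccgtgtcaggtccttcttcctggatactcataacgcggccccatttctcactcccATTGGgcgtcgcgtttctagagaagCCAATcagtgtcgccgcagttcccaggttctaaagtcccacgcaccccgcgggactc
B2M: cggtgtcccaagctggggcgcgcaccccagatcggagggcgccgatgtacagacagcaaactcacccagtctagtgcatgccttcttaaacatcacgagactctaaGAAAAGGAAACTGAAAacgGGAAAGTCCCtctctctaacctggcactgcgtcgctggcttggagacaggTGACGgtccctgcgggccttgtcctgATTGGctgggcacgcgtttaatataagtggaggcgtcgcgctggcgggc
TAP1: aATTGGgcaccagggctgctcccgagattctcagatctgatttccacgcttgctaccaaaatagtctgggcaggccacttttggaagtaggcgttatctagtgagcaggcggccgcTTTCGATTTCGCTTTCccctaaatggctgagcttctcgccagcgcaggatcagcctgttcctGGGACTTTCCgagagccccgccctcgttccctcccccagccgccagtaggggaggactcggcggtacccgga
The HLA-B stretch is at chr6:31357180-31357429 on the minus strand, that of HLA-C at chr6:31272093-31272342 on the minus strand and that of HLA-F at chr6:29723184-29723433 on the plus strand. The B2M stretch is at chr15:44711267-44711516 on the plus strand and that of TAP1 at chr6:32853705-32853954 on the minus strand.

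The promoters of HLA-B, HLA-C and HLA-F were close in sequence. In a global alignment the identity was 89.0% between HLA-B and HLA-C and 80.4% between HLA-B and HLA-F. It was 50.9% between HLA-B and B2M. HLA-B and HLA-C each held CCAAT at positions -56 to -52 before the start, and HLA-F at -57 to -53. The reverse form ATTGG lay at -81 to -77 in HLA-B, -80 to -76 in HLA-C and -82 to -78 in HLA-F. HLA-B and HLA-C held further matches. HLA-E and NLRC5 had no promoter in the RefSeq set used, and the other 8 genes had 10 listed start sites. A gene was counted if any of its start sites held the match, while the share over all promoters is per single stretch. By this count 6 of these 8 genes held CCAAT on either strand, against 32.0% of all 35116 promoter stretches of the same length. These letters were counted wherever they lay in the stretch, at -249 to -245 in TAP1 for example, so a match need not be a Y box. The interferon core was found in 5 of 8 (B2M, HLA-F, TAP1, TAP2 and TAPBP) against 3.02% of all stretches, and the kappaB consensus in 6 of 8 against 5.21%. The X2 half-site was found in 4 of 8 against 21.2%, and the letters AGCAAC were in none of the 8 against 10.3%. Some matches overlap, such as a pair of interferon cores in TAP1 and another in B2M. A match is a description of letters and not a measured binding site.

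The targeted gene was lower in both PSME4 KD libraries. PSME4 stood at 158 and 180 CPM (counts scaled to library size with TMM factors) in control KD 1 and 2 against 75.3 and 85.1 CPM in PSME4 KD 1 and 2. Its log2 fold change, given throughout as PSME4 KD over control KD, was -1.08 (SE 0.20, adjusted p = 0.000855 by the quasi-likelihood F test of edgeR, adjusted by Benjamini-Hochberg). The call of PSME4 ended when control KD 1, control KD 2 or PSME4 KD 1 was left out (adjusted p 0.0522, 0.0599 and 0.146, edgeR), with values from -1.17 to -0.97. Library totals ran from 11766371 to 15208588 counts, lower in control KD than in PSME4 KD. All 6 epithelial markers of the labelled cell type were present, at a summed 3701 to 5160 CPM. Most of that sum was KRT18 (2820 to 4119 CPM), while EPCAM was at 5.42 to 7.88 CPM and KRT19 at 1.71 to 3.78 CPM. Of the markers of other cells, 4 of 8 leukocyte genes were measured (CD68, CD14, ITGAM and LYZ, most of it CD68), at a summed 30.9 to 41.8 CPM, 3 of 6 fibroblast genes (COL1A1, LUM and PDGFRA) at 17.2 to 28.6 CPM and 2 of 6 endothelial genes at 12.6 to 16.2 CPM. The leukocyte sum was 35.0 and 30.9 CPM in control KD and 41.2 and 41.8 CPM in PSME4 KD, the fibroblast sum was 17.2 and 21.2 CPM in control KD and 26.4 and 28.6 CPM in PSME4 KD, and their part in the results was not tested. Of the 3 fibroblast genes tested, COL1A1 rose by 0.73 and PDGFRA fell by 1.34 on the log2 scale, beside 10.6% of all genes called. Their adjusted p-values were close to 0.05 (0.0479 and 0.0453 by the quasi-likelihood test of edgeR), and LUM (0.54) did not pass. PDGFRA was at only 2.60 and 2.58 CPM in control KD against 0.723 and 1.31 CPM in PSME4 KD.

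None of the 10 class I genes passed the test at an adjusted p under 0.05 by edgeR, limma voom or DESeq2 (which gave HLA-F and NLRC5 no adjusted p), beside 10.6% of the 13497 genes tested by edgeR, 4.56% higher and 6.00% lower in PSME4 KD. At an unadjusted p under 0.05 there was 1 (HLA-F) of 10 by edgeR, beside 26.2% of all genes tested. In 4 of 10 (HLA-F, NLRC5, TAP1 and TAP2) both PSME4 KD libraries lay above both control KD libraries, beside 26.7% of all genes. In 0 of 10 both lay below, beside 28.4% of all genes. The median log2 fold change of the 10 genes was 0.13, with 6 above and 4 below zero, and that of all tested genes was -0.0021. The 95% intervals of single genes, not adjusted for their number, lay within a 2-fold change in both directions for 8 of the 10 genes, and reached beyond it for HLA-F and NLRC5. In bulk RNA, fewer cells with a transcript and less of it per cell cannot be told apart.

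**Figure D1:**
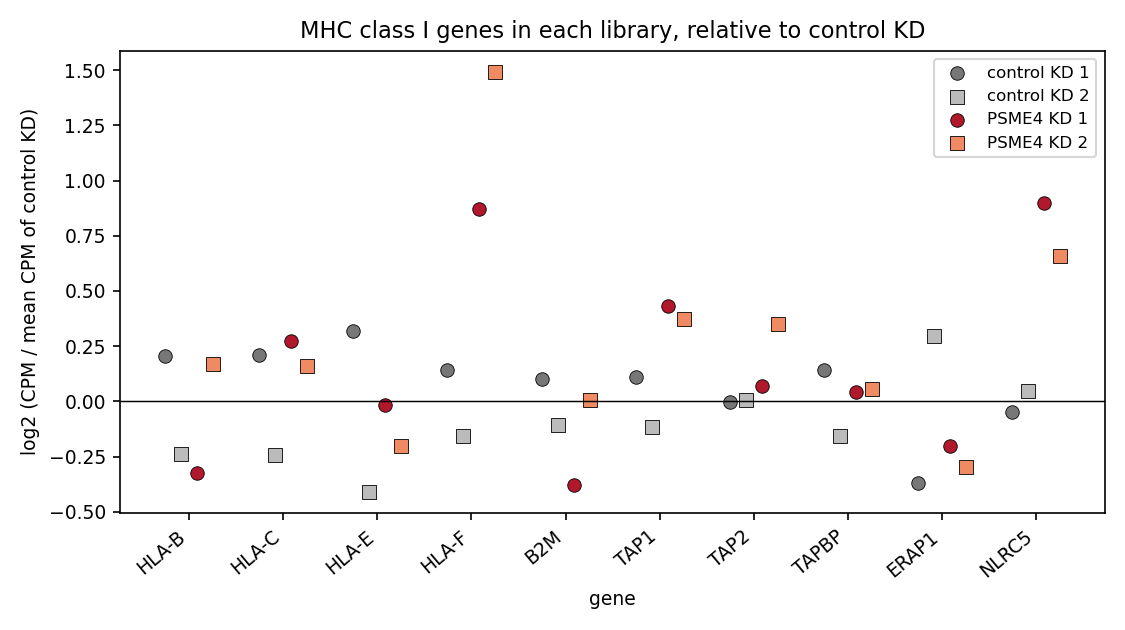
Each point is 1 library, as log2 of its CPM over the mean CPM of control KD for that gene. HLA-F and NLRC5 have both PSME4 KD points well above the control points, TAP1 and TAP2 slightly above, and the other 6 genes overlap between groups.

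Among the heavy chains, the classical gene HLA-B, whose product presents peptides to CD8+ T cells, was at 16.0 and 11.8 CPM in control KD 1 and 2 against 11.1 and 15.6 CPM in PSME4 KD 1 and 2. Its groups overlap fully, as each holds a high and a low library. The log2 fold change was -0.06 (95% interval -0.58 to 0.46), which in folds is 0.671 to 1.38. HLA-C, the other classical chain described here and a ligand of killer-cell receptors, was at 14.7 and 10.7 CPM in control KD against 15.4 and 14.2 CPM in PSME4 KD. Only control KD 2 was low for it, and the log2 fold change was 0.22 (95% interval -0.29 to 0.72). With 1 library left out the value of HLA-C ran from 0.016 (without control KD 2) to 0.46 (without control KD 1).

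HLA-E presents leader peptides of other class I chains to the NKG2A receptor of natural killer cells. It was at 30.5 and 18.4 CPM in control KD 1 and 2, a wider gap than the 24.2 and 21.3 CPM of PSME4 KD 1 and 2, which lay between them. The log2 fold change of HLA-E was -0.10 (95% interval -0.60 to 0.39). Both HLA-B and HLA-E changed sign when control KD 1 was left out, to 0.18 and 0.30.

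HLA-F, a nonclassical chain with little surface expression in most cells, showed the largest value of the 10 genes. It had 11 and 9 counts in control KD 1 and 2 and 24 and 37 counts in PSME4 KD 1 and 2, or 0.952, 0.774, 1.58 and 2.43 CPM. Both PSME4 KD libraries were above both control KD libraries, and the log2 fold change was 1.21 (SE 0.47, 95% interval 0.25 to 2.16). The adjusted p was 0.0940 by the quasi-likelihood test of edgeR, so HLA-F did not pass at 0.05. After a correction for GC content its value was 0.97 with an adjusted p of 0.184 (edgeR), and with 1 library left out it ranged from 0.89 to 1.48, with adjusted p from 0.188 to 0.706 (edgeR). HLA-F overlaps the antisense gene HLA-F-AS1, and without a stated strand setting it is unknown whether the reads of both were told apart.

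The 4 heavy chains together had 718 and 485 counts in control KD 1 and 2 and 795 and 816 in PSME4 KD 1 and 2, or 62.1, 41.7, 52.2 and 53.5 CPM. Both PSME4 KD libraries thus lay between the control KD libraries. HLA-E gave the largest share of these counts in every library, from 39.7% to 49.0%, and HLA-F the smallest, from 1.53% and 1.86% in control KD to 3.02% and 4.53% in PSME4 KD. Class I genes are near copies of each other, which can split reads between them. In the reference transcripts, 2.54% of the 50-base windows of HLA-B, 6.71% of HLA-C, 5.13% of HLA-E and 1.70% of HLA-F also occur in a transcript of another gene. The alleles of A549 can differ from the reference, so the values of single heavy chains are uncertain beyond their counting error.

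B2M, the light chain that pairs with every class I heavy chain, was at 350 and 303 CPM in control KD 1 and 2 against 251 and 328 CPM in PSME4 KD 1 and 2. The low library was PSME4 KD 1, and PSME4 KD 2 lay between the control libraries. With a sum of 7574 control KD counts and 8828 PSME4 KD counts it was measured more deeply than any of the other 9 genes, and its log2 fold change was -0.17 (95% interval -0.58 to 0.23, or 0.670-fold to 1.17-fold). The value was 0.06 after the GC correction, 0.0075 without PSME4 KD 1 and -0.35 without PSME4 KD 2. The 3 tested genes outside the lists whose profile over the 4 libraries was nearest to that of B2M were MILR1, TSPYL4 and FANCA, at root mean square distances of 0.020, 0.025 and 0.025 on the log2 CPM scale. Of the 8693 genes compared (mean of at least 10 CPM), 230 lay within 0.1, so these 3 were far from the only genes with a near profile.

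The transporter genes both had their PSME4 KD libraries above their control libraries. TAP1 was at 14.3 and 12.2 CPM in control KD 1 and 2 against 17.9 and 17.1 CPM in PSME4 KD 1 and 2, with a log2 fold change of 0.40 (95% interval -0.08 to 0.89). Its adjusted p was 0.284 (the quasi-likelihood test of edgeR), and the value was 0.17 after the GC correction. TAP1 overlaps the antisense gene PSMB8-AS1, with the same limit from the unstated strand setting. TAP2 was at 13.6 and 13.7 CPM in control KD against 14.3 and 17.4 CPM in PSME4 KD, a log2 fold change of 0.22 (95% interval -0.27 to 0.71). PSME4 KD 1 was only just above the controls for TAP2. It was at 0.10 without PSME4 KD 2 and at 0.35 without PSME4 KD 1. After the GC correction TAP2 was at 0.18, so TAP1 was no longer the larger.

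The counts of TAP1 over those of TAP2, whose products are needed in equal number for the transporter, gave a ratio of 1.05 and 0.893 in control KD 1 and 2 and of 1.25 and 0.985 in PSME4 KD 1 and 2. These groups overlap. In the reference, 35.8% of the 50-base windows of TAP2 are shared with 2 other annotated genes and 1.07% of those of TAP1 with 2 others, so reads of TAP2 may have been dropped or shared. TAP1 also lies back to back with PSMB9, an inducible proteasome subunit, with 488 bases between their start sites on chromosome 6. PSMB9, named after its values were seen, was at 7.96 and 3.87 CPM in control KD 1 and 2 against 6.57 and 6.23 CPM in PSME4 KD 1 and 2, so its groups overlap, and its log2 fold change was 0.11 (95% interval -0.54 to 0.76).

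Tapasin, which bridges the empty class I molecule to the transporter, was at 69.7 and 56.8 CPM in control KD 1 and 2 against 65.1 and 65.9 CPM in PSME4 KD 1 and 2. The PSME4 KD libraries were nearly equal and lay between the controls, and the log2 fold change of TAPBP was 0.05 (95% interval -0.36 to 0.46). TAPBP overlaps RGL2, and reads of both cannot be told apart there. ERAP1 was at 25.2 and 39.9 CPM in control KD 1 and 2 against 28.3 and 26.5 CPM in PSME4 KD 1 and 2. Only control KD 2 was high for ERAP1. Its log2 fold change was -0.25 (95% interval -0.72 to 0.22), and without control KD 2 it was 0.13. ERAP1 overlaps ERAP2 and CAST in RefSeq, with the same limit from the unstated strand setting.

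NLRC5, the class I transactivator, was the lowest gene per length and among the least counted. It had 13 and 14 counts in control KD 1 and 2 and 33 and 28 in PSME4 KD 1 and 2, or 1.12, 1.20, 2.17 and 1.84 CPM. The groups do not overlap, the log2 fold change was 0.78 (SE 0.43, 95% interval -0.11 to 1.67), and the adjusted p of 0.259 (the quasi-likelihood test of edgeR) did not pass. After the GC correction the value was 0.53, and with 1 library left out it ranged from 0.66 to 0.92. For each 100 B2M counts there were 0.321 and 0.397 NLRC5 counts in control KD and 0.862 and 0.560 in PSME4 KD, and 17.7 and 13.7 counts of the 4 heavy chains in control KD against 20.8 and 16.3 in PSME4 KD. The NLRC5 share does not overlap between groups, while the heavy chain share does. With 2 libraries against 2, no exact permutation test of such a ratio can pass 0.05, so these are given as values.

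**Figure D2:**
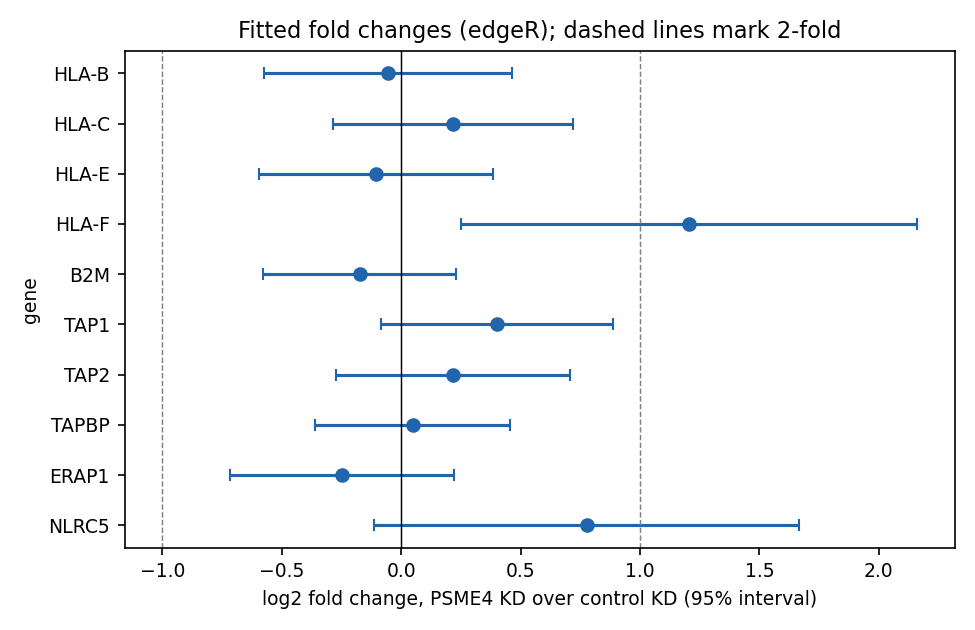
Points are log2 fold changes of PSME4 KD over control KD and bars their 95% intervals from edgeR, with 2 libraries per group. The interval of HLA-F alone lies above zero, and those of HLA-F and NLRC5 alone cross the dashed 2-fold line.

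Levels of different genes were compared per length, as CPM per kb of the longest coding transcript in GENCODE 29. B2M led with 192 ± 19.4 CPM per kb (SD, n = 2) in control KD and 170 ± 31.7 in PSME4 KD. TAPBP followed at 16.8 ± 2.43 CPM per kb in control KD, 11.4-fold under B2M. HLA-E, HLA-B, HLA-C, ERAP1 and TAP1 came next, from 9.39 down to 4.48 CPM per kb, and no neighbouring pair of these 5 was apart in control KD, as their libraries overlap. TAP2 at 2.40, HLA-F at 0.528 and NLRC5 at 0.171 CPM per kb were each apart from the gene above them in control KD. For TAP2 this gap to TAP1 arises with the division by length. Before it, TAP1 and TAP2 were at 13.2 and 13.6 CPM in control KD, with transcripts of 2959 and 5684 bases. Reads of TAP2 may also have been dropped or shared, as given above. B2M, TAPBP, TAP2, HLA-F and NLRC5 kept their places in PSME4 KD, while the heavy chains HLA-C, HLA-E and HLA-B, which overlap, came in another order, as did TAP1 and ERAP1.

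**Figure D3:**
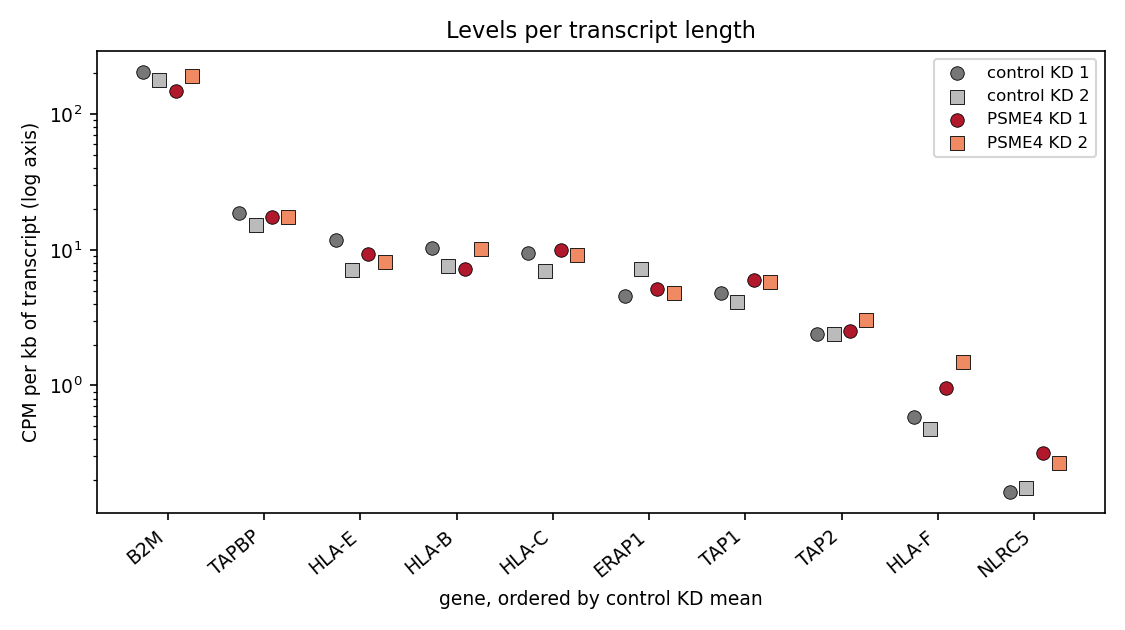
Each point is 1 library, as CPM per kb of transcript on a log axis, with genes ordered by their control KD mean. B2M stands above all other genes, and HLA-F and NLRC5 are at the bottom. From HLA-E to TAP1, neighbouring genes overlap in control KD, while HLA-C and ERAP1 are apart in PSME4 KD.

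Of the 10 genes 7 lie within chr6:29723434-33314078, from HLA-F to TAPBP, while ERAP1 is on chromosome 5, B2M on 15 and NLRC5 on 16 (RefSeq, GRCh38.p14). The 86 other tested genes that lie within that stretch had a median log2 fold change of 0.24, and 7 rose and 0 fell (beside 4.56% and 6.00% of all genes), where the median of the 7 class I genes was 0.22. That stretch was chosen after the values were seen. Those 86 genes had a median GC content of 55.0%, and after the GC correction 4 were higher and 0 lower, with a median of 0.07. The transcripts of 8 of the 10 genes are richer in GC than the median tested gene (48.0%), with HLA-C highest at 60.0% and B2M (39.4%) and ERAP1 (39.7%) below it. GC content moved with a difference between control libraries, at a Spearman's rho of -0.50 across 13154 genes (which are not independent replicates) for control KD 2 over control KD 1. For PSME4 KD 2 over PSME4 KD 1 the rho was 0.098. In the fit corrected for GC, the 5 largest values among the class I genes in either direction were 0.97 for HLA-F, 0.53 for NLRC5, -0.29 for HLA-B, -0.28 for HLA-E and -0.19 for TAPBP, and none passed by edgeR.

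**Figure D4:**
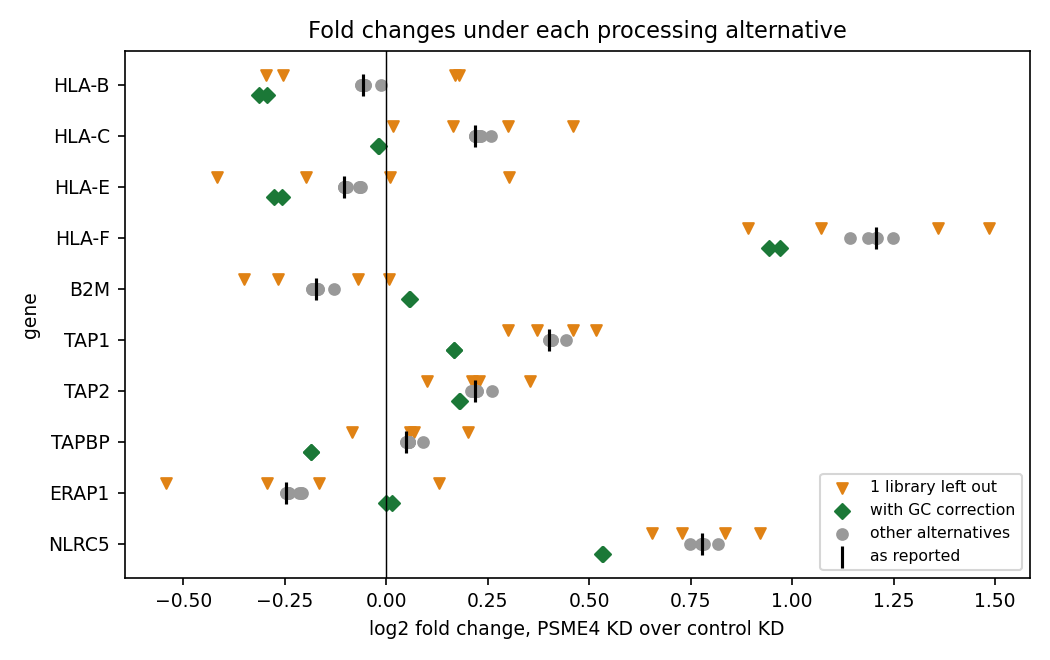
Each row is 1 gene and each symbol its log2 fold change under 1 processing alternative, with the reported value as a vertical bar. HLA-F, NLRC5, TAP1 and TAP2 are above zero under all alternatives in which they were tested, while HLA-B, HLA-C, HLA-E, B2M, TAPBP and ERAP1 have values on both sides of zero.

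The authors' deposited table gave its own comparison as control KD over PSME4 KD. In the authors' deposited table HLA-F had a log2 value of -1.22 with an adjusted p of 0.339, NLRC5 -0.79 with 0.561 and TAP1 -0.41 with 0.426. The adjusted p-values of the other 7 class I genes in the authors' deposited table were between 0.693 (ERAP1) and 0.961 (HLA-B).

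The rest of the pathway was read from 7 lists with 58 genes, of which 51 were tested. Over these lists 2 genes rose, 1 fell and 48 did not pass by edgeR, beside 10.6% of all genes called, and the median log2 fold change was -0.02. The libraries of 17 were apart and higher, beside 26.7% of all genes, and of 11 apart and lower, beside 28.4%. Of 13 transcription factors of class I genes 1 rose, 1 fell and 11 did not pass, beside 10.6% of all genes called. RELA, the NF-kB subunit p65, was at 19.2 and 20.3 CPM in control KD 1 and 2 against 42.1 and 39.3 CPM in PSME4 KD 1 and 2. It rose by 1.04 on the log2 scale (95% interval 0.60 to 1.48, adjusted p = 0.00268 by the quasi-likelihood test of edgeR), and its value was 0.80 after the GC correction. The call of RELA ended when control KD 1, control KD 2 or PSME4 KD 1 was left out (adjusted p 0.0877, 0.0643 and 0.146, edgeR), with values between 0.99 and 1.12.

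NFYB, a subunit of the factor that binds the Y box, went from 37.1 and 44.6 CPM to 27.9 and 23.5 CPM and fell by 0.67 on the log2 scale (95% interval -1.11 to -0.23). It did not pass after the GC correction (-0.34), by DESeq2 or with any 1 library left out. NFKB1, the partner of RELA in the commonest NF-kB dimer, was at 0.47 (95% interval 0.02 to 0.92) and did not pass. IRF1, an interferon-induced activator of class I genes that was named after its values were seen, was at 7.87 and 5.16 CPM in control KD against 9.52 and 10.2 CPM in PSME4 KD (log2 value 0.60, 95% interval 0.02 to 1.18, adjusted p = 0.172 by edgeR). The value of IRF1 was 0.33 without control KD 2 and 0.93 without control KD 1.

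None of 8 further genes of peptide loading passed by edgeR, and 1 had an unadjusted p under 0.05, beside 26.2% of all genes. This was UGGT2, a folding sensor of glycoproteins, at -0.60 (95% interval -1.02 to -0.18), while the chaperones PDIA3 and CALR were at -0.34 and 0.30. After the GC correction UGGT2 was at -0.32 and CALR at 0.13. None of 11 genes of peptide supply passed by edgeR, and 2 had an unadjusted p under 0.05, again beside 26.2% of all genes. These were the cytosolic peptidases NRDC (-0.41) and THOP1, which destroys peptides (0.72, and at 11.8 CPM in PSME4 KD 1 against 5.97 CPM in PSME4 KD 2). THOP1 was at 0.15 without PSME4 KD 1 and at 1.15 without PSME4 KD 2. The proteasome activator subunit PSME1 was at 0.42, at 0.19 without control KD 2 and at 0.69 without control KD 1. PSMB8 and PSMB10, inducible catalytic subunits that were named after their values were seen, were at 0.52 (95% interval -0.01 to 1.05) and 0.43 (95% interval -0.28 to 1.14), and at 0.32 and 0.19 after the GC correction.

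Of 5 genes of interferon-gamma reception and its feedback none passed by edgeR, and the unadjusted p was under 0.05 for 1, beside 26.2% of all genes. This was the kinase JAK2 at -0.65 (95% interval -1.10 to -0.20). JAK1 was at -0.37 and the receptor chain IFNGR2 at 0.36. After the GC correction JAK2 was at -0.40 and IFNGR2 at 0.17. Of 5 class I-like genes 1 rose and 4 did not pass, beside 4.56% of all genes that rose. MR1, which presents vitamin B metabolites to mucosal-associated invariant T cells, was at 25.6 and 29.8 CPM in control KD 1 and 2 against 43.7 and 47.6 CPM in PSME4 KD 1 and 2. It rose by 0.72 on the log2 scale (95% interval 0.29 to 1.15, adjusted p = 0.0275 by the quasi-likelihood test of edgeR) and was at 0.80 after the GC correction. MR1 did not pass with any 1 library left out, with values between 0.61 and 0.84. The stress ligand MICB was at -0.46 and HFE, a regulator of iron uptake, at 0.20.

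None of 6 genes of class I turnover at the surface passed by edgeR, and 1 had an unadjusted p under 0.05 (beside 26.2% of all genes), the ubiquitin ligase MARCHF4 at -0.78. With the GC correction MARCHF4 passed (-1.02, edgeR adjusted p = 0.0345). WWP2 and MARCHF9, other ubiquitin ligases, were at 0.28 and 0.32, and at 0.047 and 0.088 after the GC correction. MARCHF9 was at 0.027 without control KD 2 and at 0.70 without control KD 1. Among 3 tested genes of class II presentation, edgeR called 0 at an adjusted p under 0.05, beside 10.6% of all genes. At an unadjusted p under 0.05 there were also 0 of these 3, beside 26.2% of all genes. HLA-DMB, HLA-DMA, which load peptides onto class II, and the protease CTSS were at 0.38, 0.14 and -0.13.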

How the data were processed

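Polyadenylated RNA of 4 A549 libraries was sequenced with the Lexogen SENSE kit, per the labels' protocols. The submitters' processing notes name cutadapt, STAR, DESeq2 and hg38. The sources used here give no read counter, strand setting or annotation. The deposited table holds raw counts per gene, per the file headers. Its normalised values are a deposited signal, in which each library's counts were scaled by 1 size factor, and the deposited log2 values (regularised log) were not used. A log2 fold change, a p-value and adjusted p-values are the authors' own, per the file headers. In each row the highest count was at least 6, so low rows were removed before deposit.

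Counts were fitted in R 4.3.3 with edgeR 4.0.16 (filterByExpr, TMM, glmQLFit, glmQLFTest, group as the only term, 2 residual degrees of freedom), which tested 13497 genes with Benjamini-Hochberg adjustment at 0.05. The SE is the log2 fold change over the square root of F, and 95% intervals use the fit's total degrees of freedom. SDs are over 2 libraries. The fit was tested on simulated data. Replicate libraries were distinct beyond counting noise (chi-square over degrees of freedom 22.3 for control KD, 18.0 for PSME4 KD). The GC correction subtracts a lowess trend (span 0.4) of each library on transcript GC content (GENCODE 29) and enters as an offset. DESeq2 1.42.0 and limma 3.58.1 were alternatives.

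The members and lists were chosen with earlier results of these data known. Genes named are PSME4, all members, list genes past the threshold or up to 3 per list by p-value, and the 3 nearest profiles to B2M, for which a minimum of 10 CPM was added later. IRF1, PSMB8, PSMB9, PSMB10 and the cell type markers given were named besides this rule. The comparison of transcript windows, the promoter alignment and the chromosome 6 stretch were also added after the data were seen.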

Additional observations from a re-analysis of the deposited data

How the results depend on the processing

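None of the 10 class I genes passed under any alternative at 0.05, and at 0.10 there was 1 (HLA-F). HLA-F and NLRC5 had too few counts for the filter of 50 counts in 2 libraries and no adjusted p by DESeq2. Over all genes, 1426 passed as reported, 2240 at 0.10, and 43 to 281 with 1 library left out, so the loss of a call was usual in these smaller fits, in which a lone library is assumed to vary like the other group. Library size as the only scaling gave 853 higher and 764 lower, against 616 and 810. Of the 3 list genes called, 0 to 1 passed with 1 library left out, and 5 genes passed at 0.10 or with the filter of 50 counts, JAK2 and UGGT2 added.

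After the GC correction signs turned for HLA-C (-0.021), B2M (0.058), TAPBP (-0.19), HLA-DMA (-0.0033), CTSS (0.0997) and PSMB9 (-0.034). With the replicate block and the GC correction together, HLA-C was at -0.018, B2M at 0.055, TAPBP at -0.19, ERAP1 at 0.015, HLA-DMA at -0.015 and CTSS at 0.087. With 1 library left out, values ranged from -0.30 to 0.18 for HLA-B, -0.42 to 0.30 for HLA-E, -0.35 to 0.0075 for B2M, -0.084 to 0.20 for TAPBP, -0.54 to 0.13 for ERAP1, -0.10 to 0.37 for HLA-DMA, -0.38 to 0.11 for CTSS and -0.31 to 0.72 for PSMB9. The cause of these changes was not tested.

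Replicate numbers are shared between groups, but the deviations of same-numbered libraries were not correlated (r = -0.043 over 8748 genes). This single correlation across genes cannot show whether the numbers mark a pairing. The replicate block alone called 1554 genes, 0 of the 10 class I genes and 3 list genes. With 1 library left out, the log2 difference between groups was 0.02 to 0.36 for the TAP1 to TAP2 ratio, 0.05 to 0.42 for heavy chains to B2M and 0.65 to 1.27 for NLRC5 to B2M. Depth limits HLA-F and NLRC5 most, at 20 and 27 counts in control KD.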
